A study of Mus musculus with 12 samples.

Results

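The 10 genes described here are mouse genes of early pluripotency and of the germ line, chosen by symbol: *Dppa2*, *Dppa4*, *Dppa3* and *Dppa5a*, the germline genes *Tex19.1*, *Mael*, *Dazl* and *Sycp3*, and *Prdm1* and *Prdm14*, regulators of primordial germ cells. They are 10 of the 23086 gene symbols counted, and all 10 passed the filter on low counts, which left 12322 genes to test. RNA came from embryoid bodies, the floating clusters in which stem cells leave pluripotency, grown for 2 days from A2lox.cre embryonic stem cells, where doxycycline switches on a gene placed at the *Hprt* locus. One line carried wild-type FLAG-*Lhx1* and the other a mutant FLAG-*Lhx1* (the labels do not name the mutation), and each was kept without doxycycline or given it for 16 h. These 4 groups had 3 libraries each and address the targets of LHX1, a homeodomain factor of head formation. The sources used here do not say how many clones a line stands for, so line and clone cannot be told apart, nor do they say that the 3 libraries of a group came from separate cultures. A p-value here therefore reflects the spread among libraries, which may be technical.

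As background, DPPA2 and DPPA4 form a pair of SAP domain proteins that bind CpG-rich promoters in pluripotent cells and help keep them free of DNA methylation. DPPA3 (Stella) counters maintenance methylation, and DPPA5A (ESG1) is an RNA-binding protein of pluripotent cells. A group of germline genes, among them *Tex19.1*, *Mael*, *Dazl* and *Sycp3*, is silenced in the epiblast by promoter methylation together with a Polycomb complex that contains E2F6, MGA and MAX. PRDM1 and PRDM14 start the germ cell programme in the epiblast, and PRDM14 also holds stem cells in the naive state. DNA methylation itself was not measured here.

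The 12 libraries held 4289984 to 4850393 counts each. *Lhx1*, the check of the labels, was at 2.09 ± 1.13 and 296 ± 9.37 CPM in the wild-type line without and with doxycycline, and at 0.421 ± 0.0124 and 248 ± 12.6 CPM in the mutant line (CPM are counts scaled to library size with TMM, here and below as mean ± SD, n = 3). The markers of stem cell-derived epiblast were abundant in every group, with *Pou5f1* at 1033 to 1378 CPM and *Sox2* at 251 to 295 CPM as group means. Wild-type library 3 without doxycycline stood apart from its group in the hypoxia gene *Bnip3* (229 CPM against 58.5 and 63.3), and wild-type library 2 with doxycycline in the ribosomal RNA precursor *Rn45s* (14754 CPM against 2097 and 1056). Leaving out both changed none of the calls among the 10 genes. The lines themselves differed widely: 45.5% of the genes tested were called between them without doxycycline, 22.6% higher and 23% lower in the wild-type line, and 44.4% with it (a call is an adjusted p under 0.05 in edgeR's quasi-likelihood test, with Benjamini-Hochberg adjustment). The 8 tested genes of the Y chromosome had 1973 to 2138 counts in each wild-type library and 10 to 33 in each mutant library. Without doxycycline, the median log2 difference between the lines was 0.39 over chromosome 8, −0.49 over chromosome 14 and 0.19 over chromosome 11, against −0.08 to 0.03 over each other autosome. Chromosome copy number was not measured, and its part in the line differences below was not tested.

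Between the lines, 6 of the 10 genes were higher in the wild-type line without doxycycline and 1 was lower (background 22.6% and 23% of the genes tested, 45.5% together), and with doxycycline again 6 were higher and 1 lower (background 22.4% and 21.9%). *Tex19.1* and *Dppa3* were 4.77-fold and 4.76-fold higher in the untreated wild-type line, and *Sycp3*, the exception, was 3.28-fold lower. With doxycycline *Tex19.1* rose and *Dppa5a* fell slightly in the wild-type line, that is 1 of 10 higher and 1 of 10 lower (background 2.76% and 2.56%, 5.32% together). There 6 of 10 had groups that did not overlap (background 18.9%), and in the mutant line 0 of 10 (background 10.6%). In the mutant line none of the 10 genes was called by edgeR (background 0.0162%, or 2 genes), by DESeq2 or by limma-voom, and 0 had an unadjusted p under 0.05, against 578 of all genes tested. Between the lines 8 of 10 did not overlap in either state (background 51.8% without and 51.7% with doxycycline). The median log2 fold change of the 10 genes was 0.58 and 0.69 between the lines without and with doxycycline, −0.16 for doxycycline in the wild-type line and 0.02 in the mutant line, beside medians over all genes tested of −0.00350, −0.00905, −0.00344 and −0.00150.

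**Figure D1:**
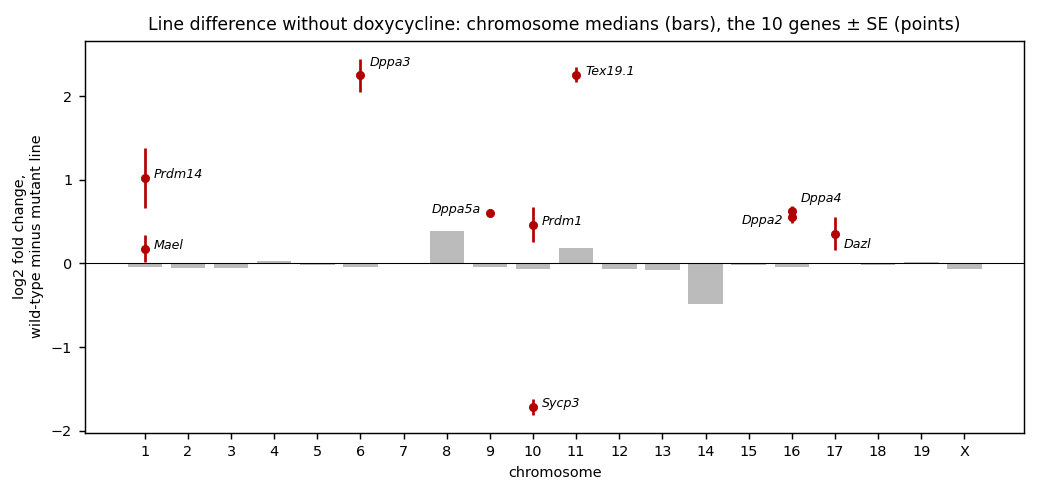
Bars give the median log2 difference between the untreated lines over the tested genes of each chromosome (horizontal axis, autosomes and X), and red points the 10 genes with their SE. The bars of chromosomes 8, 11 and 14 stand out at 0.39, 0.19 and −0.49, and of the 10 genes only *Tex19.1*, at 2.25, lies on one of these.

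**Figure D2:**
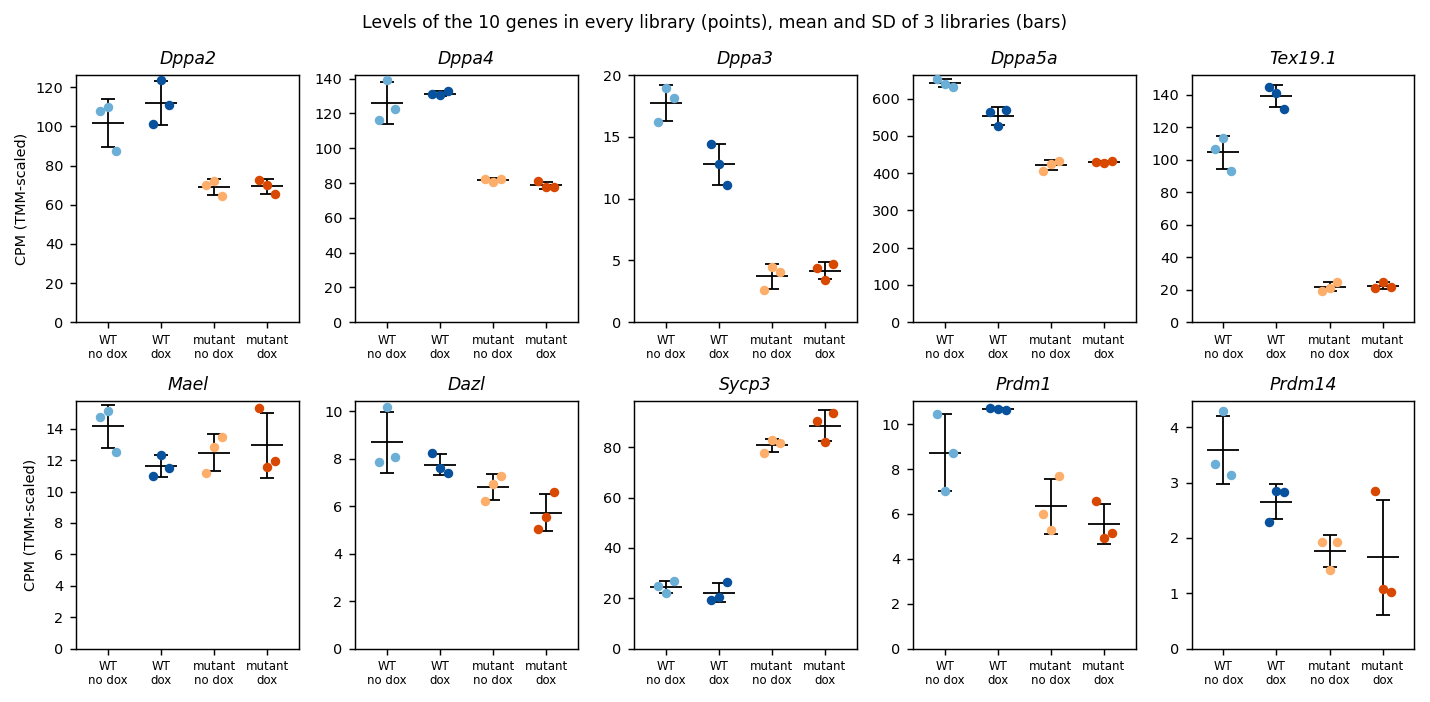
Each panel shows 1 gene, with TMM-scaled CPM on the vertical axis from 0, 1 point per library, and bars for the mean and SD of the 3 libraries of each group (WT, wild-type line; dox, doxycycline). *Tex19.1* and *Sycp3* show the lines apart in opposite directions, at 93.2 CPM or more against 24.8 or less for *Tex19.1* and at 26.9 or less against 77.9 or more for *Sycp3*.

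*Dppa2* and *Dppa4* lie side by side on chromosome 16 (mm10, 48303908 to 48319723 and 48283733 to 48294237). The wild-type libraries had 108, 110 and 87.6 CPM of *Dppa2* without doxycycline and 101, 124 and 111 with it. The mutant libraries had 69.99, 72.3 and 64.4 without and 72.8, 70.1 and 65.3 with it. Every wild-type library thus stood above every mutant library, while the treated and untreated libraries of 1 line overlapped. The line difference was a log2 fold change of 0.56 without doxycycline (SE 0.08, edgeR adjusted p = 1.90e-07) and 0.69 with it (SE 0.08, edgeR adjusted p = 1.56e-09). Each SE is the log2 fold change divided by the root of its F statistic. For *Dppa4*, the wild-type libraries had 116, 139 and 122 CPM without and 131, 130 and 133 with doxycycline, and the mutant libraries 82.2, 80.8 and 82.3 without and 81.1, 77.5 and 77.7 with it. Its levels again separated the lines and not the treatments. Its line difference was 0.62 without (SE 0.06, edgeR adjusted p = 5.84e-12) and 0.74 with doxycycline (SE 0.06, edgeR adjusted p = 2.03e-14). Doxycycline values in the wild-type line were 0.14 for *Dppa2* and 0.06 for *Dppa4* on the log2 scale, neither called (edgeR adjusted p = 0.392 and 0.718). *Morc1*, the next tested gene beyond *Dppa2*, 112 kb away, was higher in the wild-type line too, by 1.23 without doxycycline (SE 0.12, edgeR adjusted p = 1.41e-12). It encodes a repressor of transposons in male germ cells, and like all neighbours given here it was looked up after the values of the 10 genes were seen. The background of such calls was 45.5%, and neighbours did not all go with their gene. *Ncoa2* and *Slco5a1*, beside *Prdm14*, were lower in the untreated wild-type line, by 0.39 and 0.82 (edgeR adjusted p = 9.80e-05 and 0.00333). Beside *Dppa3*, *Gdf3* was higher by 0.51 (edgeR adjusted p = 0.000112) and *Nanog* had −0.005 (edgeR adjusted p = 0.968).

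*Dppa3* (chromosome 6, 122626410 to 122630272) is few in counts but far apart between the lines. It stood at 16.2, 18.99 and 18.2 CPM in the untreated wild-type libraries and at 2.58, 4.48 and 4.06 in the untreated mutant ones. With doxycycline the values were 14.4, 12.8 and 11.1 CPM in the wild-type line and 4.38, 3.42 and 4.74 in the mutant line. The wild-type line was the higher one in all libraries, by a log2 fold change of 2.25 without doxycycline (SE 0.20, edgeR adjusted p = 3.57e-14) and 1.6004 with it (SE 0.21, edgeR adjusted p = 4.85e-09). Within the wild-type line the 3 treated libraries all lay below the 3 untreated ones. That difference of −0.48 (SE 0.16) just missed the call, with an edgeR adjusted p of 0.0565, and it was called without wild-type library 1 with doxycycline (edgeR adjusted p = 0.0429). In the mutant line the value was 0.17 (SE 0.27, edgeR adjusted p = 0.999).

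*Dppa5a* (chromosome 9, 78367052 to 78368177) was the most abundant of the 10 genes. Without doxycycline the wild-type libraries had 652, 638 and 631 CPM and the mutant libraries 406, 425 and 433. With doxycycline these were 565, 526 and 569 in the wild-type line and 430, 428 and 433 in the mutant line. In the wild-type line all treated libraries were below all untreated ones, while in the mutant line they overlapped. *Dppa5a* was higher in the wild-type line by 0.61 without doxycycline (SE 0.04, edgeR adjusted p = 5.19e-18) and by 0.36 with it (SE 0.04, edgeR adjusted p = 2.68e-10). It fell with doxycycline in the wild-type line by 0.21 (SE 0.04, edgeR adjusted p = 0.000288), and had 0.03 in the mutant line (SE 0.04, edgeR adjusted p = 0.999). The difference between these responses was −0.24 (SE 0.06, edgeR adjusted p = 0.0103), the only one called among the 10 genes (background 1.4% higher and 1.09% lower, 2.49% together). Without mutant library 1 of the untreated group its edgeR adjusted p was 0.0646. The annotation holds close relatives of *Dppa5a* on the same chromosome, *Dppa5b* and *Dppa5c*, which have no row in the table, so reads shared with such copies may be lost or added and its level is uncertain. *Ooep*, the next tested gene, 7.93 kb away and a gene of oocytes and early embryos, was higher in the wild-type line by 0.86 without doxycycline (SE 0.16, edgeR adjusted p = 9.38e-06).

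The promoters of the 4 germline genes are shown because silencing of this group is tied to CpG methylation and to the factors E2F6 and MGA with MAX. Each line gives the 250 bases before the RefSeq transcription start on the gene's own strand (GRCm38.p6, the assembly of mm10). Capitals mark each TCCCGC, the core of E2F-type sites, and each CACGTG, the E-box that MAX and its partners bind, on either strand (TCCCGC then reads GCGGGA, and CACGTG is its own reverse complement).
Tex19.1: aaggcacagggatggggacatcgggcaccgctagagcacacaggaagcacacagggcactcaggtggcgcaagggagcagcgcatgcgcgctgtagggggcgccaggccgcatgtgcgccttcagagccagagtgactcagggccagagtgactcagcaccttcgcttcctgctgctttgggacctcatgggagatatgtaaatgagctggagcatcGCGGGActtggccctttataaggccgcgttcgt
Sycp3: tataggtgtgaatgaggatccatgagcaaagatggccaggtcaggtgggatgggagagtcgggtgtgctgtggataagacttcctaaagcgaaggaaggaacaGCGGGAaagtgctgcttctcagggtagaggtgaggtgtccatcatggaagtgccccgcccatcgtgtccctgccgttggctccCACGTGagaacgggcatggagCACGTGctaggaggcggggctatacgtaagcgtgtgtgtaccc
Mael: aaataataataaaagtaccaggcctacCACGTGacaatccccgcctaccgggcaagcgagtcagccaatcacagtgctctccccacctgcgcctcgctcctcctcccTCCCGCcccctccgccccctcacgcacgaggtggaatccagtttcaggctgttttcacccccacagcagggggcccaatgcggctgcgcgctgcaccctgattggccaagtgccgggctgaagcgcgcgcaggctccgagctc
Dazl: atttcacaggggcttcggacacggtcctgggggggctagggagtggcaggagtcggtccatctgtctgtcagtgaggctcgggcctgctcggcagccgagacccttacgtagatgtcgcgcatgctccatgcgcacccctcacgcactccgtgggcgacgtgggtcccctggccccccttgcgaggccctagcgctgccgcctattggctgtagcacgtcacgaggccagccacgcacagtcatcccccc
These windows are chr11:121145893-121146142 (plus strand) for *Tex19.1*, chr10:88459337-88459586 (plus strand) for *Sycp3*, chr1:166238745-166238994 (minus strand) for *Mael* and chr17:50293621-50293870 (minus strand) for *Dazl*. They hold 15, 12, 18 and 20 CpG dinucleotides, beside a median of 6 over the 32851 such windows of 27025 genes. TCCCGC occurs once in *Tex19.1*, *Sycp3* and *Mael* and in 16.9% of all windows. CACGTG occurs at 2 places in *Sycp3*, once in *Mael* and in 6.02% of all windows, and the letters of neither are in the window of *Dazl*. *Sycp3* and *Mael* thus hold both motifs, as did 1.45% of all windows. Each motif contains a CpG, and the shares over all windows were not matched for CpG content. Windows were found for 5 of the 10 genes, *Prdm1* being the other one.

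*Tex19.1* (chromosome 11, 121146143 to 121148319), which restrains retrotransposons in germ cells and placenta, had 107, 114 and 93.2 CPM in the untreated wild-type libraries and 145, 141 and 132 in the treated ones. The mutant libraries had 19.5, 21.4 and 24.8 CPM without and 21.0, 24.8 and 21.6 with doxycycline. The 4 sets fall into 3 levels, since both mutant groups overlap, the untreated wild-type libraries lie well above them and the treated ones above those. The line difference was 2.25 on the log2 scale without doxycycline (SE 0.09, edgeR adjusted p = 5.28e-28) and 2.63 with it (SE 0.09, edgeR adjusted p = 3.11e-32). With doxycycline the gene rose by 0.41 in the wild-type line (SE 0.07, edgeR adjusted p = 1.09e-05) and had 0.04 in the mutant line (SE 0.12, edgeR adjusted p = 0.9999). The difference between these responses, 0.37 (SE 0.14), was not called (edgeR adjusted p = 0.163), so a response particular to the wild-type line is not shown for *Tex19.1*. Its paralog *Tex19.2*, 27.5 kb away, had 2.45 ± 0.377 and 2.62 ± 1.33 CPM in the wild-type line and 1.26 ± 0.385 and 0.779 ± 0.444 in the mutant line, without and with doxycycline. Reads of the paralogs may be shared.

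*Sycp3* (chromosome 10, 88459569 to 88473236), a protein of the axes of meiotic chromosomes, ran the other way. The wild-type libraries had 24.7, 22.2 and 26.9 CPM without and 19.4, 20.7 and 26.5 with doxycycline. In the mutant line the values were 77.9, 82.8 and 81.7 CPM without and 90.3, 82.0 and 93.7 with it. All mutant libraries exceeded all wild-type ones, and the line difference was −1.72 without doxycycline (SE 0.09, edgeR adjusted p = 1.89e-22) and −1.99 with it (SE 0.09, edgeR adjusted p = 2.56e-25). The treatments overlapped in both lines, at −0.14 in the wild-type line (edgeR adjusted p = 0.633) and 0.13 in the mutant line (edgeR adjusted p = 0.999). *Chpt1*, an enzyme of phosphatidylcholine synthesis, lies on the opposite strand, and its exons cover 660 of the 1264 exonic bases of *Sycp3* (52.2%). It was lower in the wild-type line as well, by 0.91 without and 1.08 with doxycycline (edgeR adjusted p = 9.18e-08 and 6.87e-10). The strand setting of the counting was not stated, so reads of *Sycp3* and *Chpt1* cannot be told apart in the shared part.

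*Mael* and *Dazl*, by contrast, were not called in any comparison. *Mael* (chromosome 1, 166201201 to 166238747), a factor of the piRNA pathway, had 14.7, 15.1 and 12.6 CPM in the untreated and 10.97, 12.4 and 11.5 in the treated wild-type libraries. The mutant libraries had 11.2, 12.8 and 13.5 CPM without and 15.3, 11.5 and 11.9 with doxycycline, overlapping the wild-type ones. Its line differences were 0.18 (SE 0.16) and −0.15 (SE 0.16), and its value with doxycycline was −0.28 in the wild-type line (SE 0.16, edgeR adjusted p = 0.407), where the groups did not overlap. *Dazl* (chromosome 17, 50279395 to 50293636), an RNA-binding protein that licenses germ cells for meiosis, had 7.85, 10.2 and 8.07 CPM in the untreated wild-type libraries against 6.23, 6.92 and 7.27 in the mutant ones. With doxycycline it had 8.23, 7.6004 and 7.39 CPM in the wild-type line against 5.04, 5.55 and 6.59. The lines did not overlap in either state but with 81 to 114 counts per group its differences of 0.35 and 0.43 (SE 0.20 and 0.21) missed the call (edgeR adjusted p = 0.145 and 0.0966).

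*Prdm1* (chromosome 10, 44437177 to 44528501), the repressor that starts germ cell specification, had 10.5, 7.01 and 8.74 CPM in the untreated and 10.7, 10.7 and 10.7 in the treated wild-type libraries. The mutant libraries had 6.01, 5.29 and 7.70 CPM without and 6.58, 4.91 and 5.15 with doxycycline. The untreated lines overlapped, and the treated ones did not. The line difference was called with doxycycline (0.95, SE 0.20, edgeR adjusted p = 0.000127) and not without it (0.46, SE 0.21, edgeR adjusted p = 0.0638), and the test of the change between them had an edgeR adjusted p of 0.526. Without doxycycline it was called when mutant library 3 (edgeR adjusted p = 0.0290) or wild-type library 2 (0.0279) was left out. Visceral endoderm also expresses *Prdm1*. The 22 endoderm genes listed summed to 438 to 459 CPM in the untreated and 480 to 517 in the treated wild-type libraries, and to 686 to 707 and 685 to 726 in the mutant ones. *Apoe*, *Sparc* and *Lamb1*, which other cells express too, had the untreated wild-type means of 172, 99.0 and 76.3 CPM within that sum. Single endoderm genes went either way. Of the 10 tested, 0 were called higher and 5 lower in the untreated wild-type line (background 22.6% and 23%). With doxycycline 3 were higher and 5 lower (background 22.4% and 21.9%). *Gata4* went with the sum, with 15 and 8 counts in the untreated and treated wild-type groups and 46 and 31 in the mutant ones. *Hnf4a* went against it, with 10 and 11 counts and 4 and 0. Without doxycycline *Eomes* stood at 9.38 ± 2.21 CPM in the wild-type and 18.4 ± 1.66 in the mutant line. With doxycycline it had 28.9 ± 5.34 and 18.9 ± 1.56. *Foxa2* had 0.155 ± 0.134 and 0.425 ± 0.220 CPM without doxycycline, and 2.88 ± 0.472 and 0.425 ± 0.369 with it. *Foxa2* passed the filter on low counts through the treated wild-type group alone, and is 1 of the 3 genes higher with doxycycline. *Afp* and *Ttr*, defining genes of visceral endoderm, had 0 to 2 counts per group. Which cells held the *Eomes* and *Foxa2* RNA was not measured, so their rise is not shown to be one of visceral endoderm. The part of endoderm cells in the level of *Prdm1* was not tested.

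*Prdm14* (chromosome 1, 13113457 to 13127163) was the rarest of the 10 genes. It had 3.33, 4.296 and 3.14 CPM in the untreated and 2.29, 2.85 and 2.83 in the treated wild-type libraries. The mutant values were 1.93, 1.42 and 1.92 CPM without and 2.85, 1.07 and 1.03 with doxycycline, where mutant library 1 lay at or above the treated wild-type libraries. The line difference was called without doxycycline (1.02, SE 0.36, edgeR adjusted p = 0.0180) and not with it (0.69, SE 0.40, edgeR adjusted p = 0.154). The untreated groups had 47 and 25 counts, and the call was lost in DESeq2 (adjusted p = 0.0820), without mutant library 2 (edgeR adjusted p = 0.0739) and without wild-type library 2 (0.0877). With doxycycline it was called once mutant library 1 was left out (1.32, edgeR adjusted p = 0.0220).

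**Figure D3:**
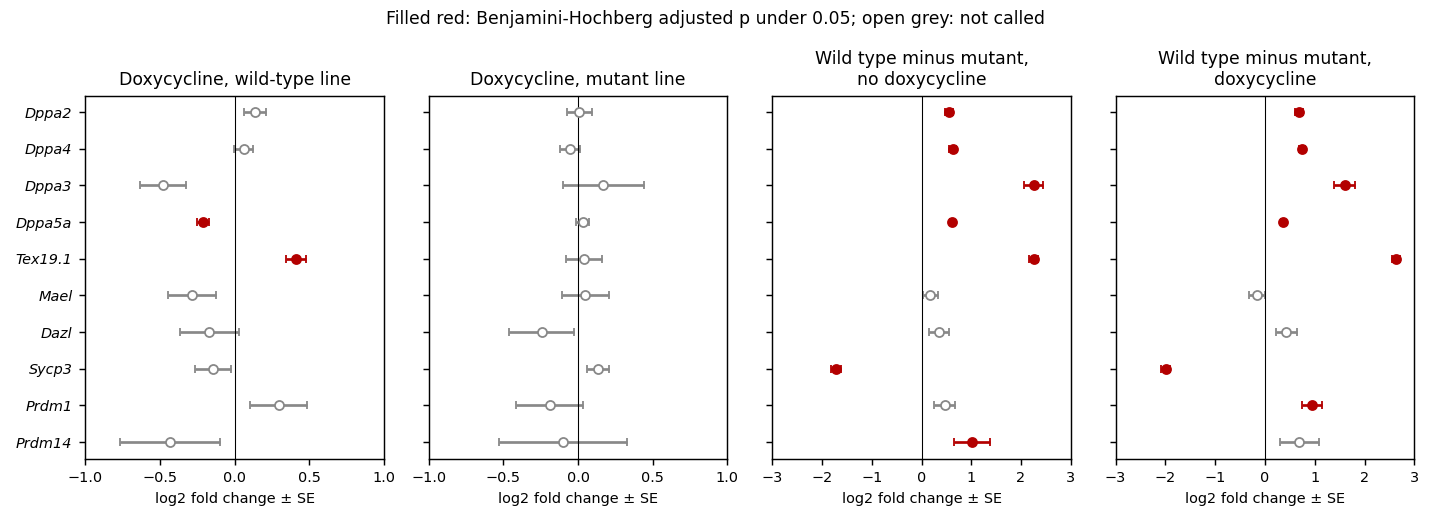
The 4 panels plot the log2 fold change (horizontal, bars are the SE) of each gene for doxycycline in either line and for the wild-type minus the mutant line without and with doxycycline, with filled red points where the adjusted p was under 0.05. In the wild-type line *Tex19.1* (0.41) and *Dppa5a* (−0.21) are called and in the mutant line none of the 10, while 7 of 10 are called in each line comparison, whose axes are wider.

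Compared per length (as TPM, computed from the counts and the exon length), the order of the 10 genes differed between the lines. In the untreated wild-type line *Dppa5a* led at 3457 ± 75.1, followed by *Dppa4* at 253 ± 23.2, *Tex19.1* at 187 ± 18.9 and *Dppa2* at 139 ± 17.1. *Dppa3* at 66.5 ± 5.14 and *Sycp3* at 64.98 ± 6.22 did not differ beyond their spread. *Mael* had 27.3 ± 2.76, and *Dazl* (7.602 ± 1.11), *Prdm1* (5.23 ± 1.06) and *Prdm14* (4.67 ± 0.803) closed the order, the last pair within each other's spread. In the untreated mutant line *Sycp3* came after *Dppa5a* (225 ± 7.09 against 2395 ± 56.9), ahead of *Dppa4* at 173 ± 2.35, *Dppa2* at 99.1 ± 7.35 and *Tex19.1* at 41.1 ± 4.38. *Mael* at 25.3 ± 2.15 stood above *Dppa3* at 14.6 ± 3.91 there.

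Most of the other methylation-sensitive germline genes that could be tested were higher in the wild-type line, like *Tex19.1*. The list held 42 genes other than the 10, of which 40 were in the table and 30 passed the filter. Of these 30, 21 were higher and 1 lower in the untreated wild-type line, with a median log2 difference of 0.96, beside 22.6% higher, 23% lower and a median of −0.00350 over all genes tested. With doxycycline 25 were higher and 0 lower, with a median of 1.19 (all genes tested: 22.4%, 21.9% and −0.00905). The filter asks for about 2.18 CPM in as many libraries as a group holds, so a gene can pass it through 1 line alone. *Hormad2* passed through the wild-type line, at 2.52 and 2.66 CPM without and with doxycycline, against 0.275 and 0.357 in the mutant line. *Tuba3b* did too, at 3.97 and 4.12 against 0.768 and 0.709 CPM. *Tex19.2*, *Taf7l*, *Rhox13* and *Smc1b*, all called higher with doxycycline, also had both mutant means under 2.18 CPM and both wild-type means above it. The counts of higher genes and the medians are thus not free of the filter. The sum of all 40 genes in the table does not depend on it. That sum was 363 to 390 CPM in the untreated wild-type libraries and 204 to 212 in the mutant ones. *Stag3*, a meiotic cohesin subunit, was higher by 1.89 without and 1.70 with doxycycline (SE 0.11 each). *Tuba3a*, a testis tubulin, was higher by 2.05 and 1.76 (SE 0.16 each), and *Hsf2bp*, a partner of BRCA2 in meiotic recombination, by 1.25 and 1.58 (SE 0.13 each). All 6 of these differences were called (largest edgeR adjusted p = 1.94e-11). Neither line showed a doxycycline call among the 30 genes by edgeR, DESeq2 or limma-voom. The edgeR background was 5.32% in the wild-type and 0.0162% in the mutant line, so few calls are to be expected among 30 genes. At an unadjusted p under 0.05 were 4 and 1 genes, with medians of 0.10 in the wild-type and −0.07 in the mutant line. Leaving out wild-type library 2 with doxycycline gave 1 lower call in the wild-type line, and leaving out untreated wild-type library 2 gave 1 higher call. Promoter windows were found for 36 of the 42 genes (43 windows), and they held a median of 14 CpG, with TCCCGC in 30.2% and CACGTG in 37.2%.

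**Figure D4:**
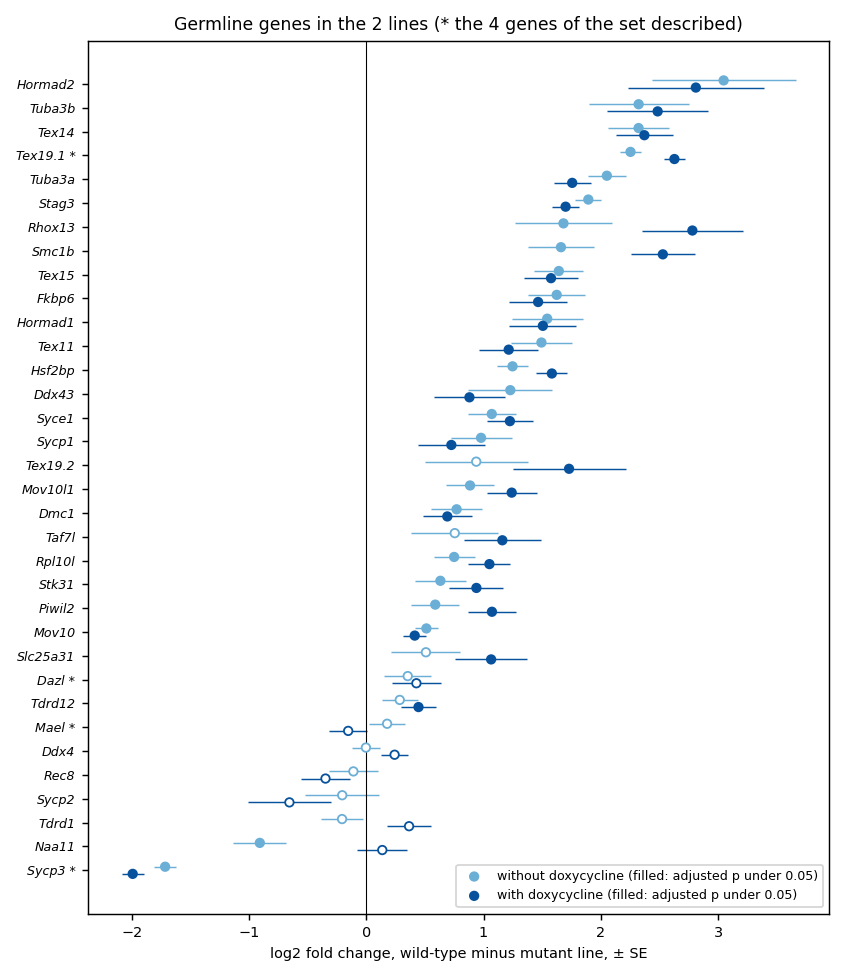
The log2 difference between the wild-type and the mutant line (horizontal, bars are the SE) is shown for the 30 tested germline genes of the list and for *Tex19.1*, *Mael*, *Dazl* and *Sycp3* (asterisks), light blue without and dark blue with doxycycline, filled where the adjusted p was under 0.05. Of the 30 list genes 25 and 28 lie to the right of 0 without and with doxycycline, and *Sycp3* lies lowest at −1.72 and −1.99. Some list genes, such as *Hormad2* and *Tuba3b*, passed the filter on low counts through the wild-type line.

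Of 14 writers and erasers of DNA methylation 8 were higher and 1 lower in the untreated wild-type line (median 0.35), beside 22.6% higher and 23% lower over all genes tested. *Dnmt3l*, the cofactor of de novo methylation, was higher there by 1.70 (SE 0.06, edgeR adjusted p = 5.32e-31) and *Uhrf1*, the maintenance cofactor, by 0.42 (SE 0.04, edgeR adjusted p = 4.08e-12). *Dnmt3a*, a de novo methyltransferase, fell with doxycycline in the wild-type line by 0.58 (SE 0.04, edgeR adjusted p = 1.20e-15), as did *Tet2*, an enzyme that oxidises methylcytosine, by 0.69 (SE 0.17, edgeR adjusted p = 0.00828), while 0 of the 14 rose (background 2.76% higher and 2.56% lower). DESeq2 kept the call of *Dnmt3a* and not that of *Tet2* (adjusted p = 0.0795). Of 21 subunits of the E2F6 and MGA complex and other repressors, 6 were higher and 3 lower in the untreated wild-type line (median 0.03), and the 9 called are near the background of 45.5%. *Tfdp1*, the dimer partner of E2F factors, which lies on chromosome 8, was higher by 0.94 (SE 0.05, edgeR adjusted p = 1.74e-22), *L3mbtl2* by 0.38 (SE 0.05, edgeR adjusted p = 3.05e-08) and *Trim28* by 0.28 (SE 0.04, edgeR adjusted p = 1.49e-07). None of the 21 was called with doxycycline in either line by edgeR, DESeq2 or limma-voom. The edgeR background there was 5.32% in the wild-type and 0.0162% in the mutant line. At an unadjusted p under 0.05 were 2 in the wild-type and 1 in the mutant line.

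Lists of pluripotency and of other cell types are read against the same background, 22.6% higher and 23% lower between the untreated lines. Of 21 naive pluripotency genes 14 were higher and 2 lower in the untreated wild-type line (median 0.53), and of 17 formative and primed genes 3 were higher and 8 lower (median −0.23). Of 14 tested genes of germ cell specification 7 were higher and 3 lower. This list overlaps the naive one: *Klf2*, *Sox2*, *Tfcp2l1* and *Zfp42* among those higher and *Pou5f1* among those lower are in both. *Zfp42*, *Nanog* and *Pou5f1*, among the doxycycline calls given below, are in both as well. *Dnd1* and *Kit*, among the specification genes that were higher, are among the higher germ cell markers too. Of the methylation writers and erasers above, *Dnmt3l* is also in the naive list, and *Dnmt3a* and *Dnmt3b* are also in the formative list. Of 12 tested germ cell markers 4 were higher and 3 lower (median −0.01), near that background, and *Nanos3* had 2 to 5 counts per group. Of 10 tested endoderm genes 0 were higher and 5 lower, of 5 tested trophoblast genes 0 and 1, and of 4 tested two-cell-like genes 0 and 2. Those 2, *Zscan4f* and *Zscan4c*, were not called by DESeq2 (adjusted p = 0.0667 and 0.163), and limma-voom called *Zscan4f* alone. With doxycycline in the wild-type line 4 naive genes rose and 6 fell, 2 formative genes rose and 8 fell, 3 specification genes rose and 2 fell, and 5 endoderm genes rose and 1 fell (background 2.76% higher and 2.56% lower). *Foxa2*, 1 of these 5 endoderm genes, passed the filter only through the treated wild-type group. *Zp3*, 1 of the 4 germ cell markers higher above, passed it through the wild-type line. These counts are thus not free of the filter. Against 10 naive genes by edgeR, DESeq2 called 5 and limma-voom 8. DESeq2 and limma-voom called 10 and 11 formative genes (edgeR 10), 5 and 5 specification genes (edgeR 5) and 6 and 6 endoderm genes (edgeR 6). No germ cell, trophoblast or two-cell-like gene was called there by edgeR, DESeq2 or limma-voom, with 1, 1 and 0 at an unadjusted p under 0.05. No gene of these lists was called in the mutant line by any of these tools (edgeR background 0.0162%). In bulk RNA, fewer cells of a state and less RNA per cell cannot be told apart, and the part of the naive genes in the levels of the 10 genes was not tested.

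Likeness was measured in log2 CPM over the 12 libraries, which share the division into lines, for 9 of the 10 genes. *Prdm14* was left out because its mean was under 5 CPM. The gene most like *Tex19.1* was *Zfp42*, a naive marker (Pearson r = 0.994), which was higher in the untreated wild-type line by 1.96 and rose with doxycycline there by 0.32 (SE 0.06, edgeR adjusted p = 3.78e-05). For *Sycp3* these were *Csrp1*, *App* and *Celf2* (r = 0.995, 0.994 and 0.994). *Dppa4* was most like *Nup93* (r = 0.990), *Dppa2* most like *A830080D01Rik* (0.978), *Dppa3* most like *Polr2c* (0.985) and *Dppa5a* most like *Magoh* (0.992). For *Prdm1* it was *Nf2* (0.947), for *Dazl* *Capn3* (0.927) and for *Mael* *Gfra1* (0.873). *Zfy1*, a gene of the Y chromosome, was nearly as like *Dppa4* as *Nup93* was (r = 0.989). Where the lines differ, likeness to a gene and a shared line difference thus cannot be told apart here. Among the 10 genes themselves *Tex19.1* and *Dppa4* had r = 0.981, *Tex19.1* and *Sycp3* −0.990, and *Mael* between −0.01 and 0.53 with the rest.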

How the data were processed

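RNA-seq of 12 libraries was deposited as raw counts of reads per gene symbol. Per the submitters' processing notes, Trimmomatic 0.33, TopHat2 2.1.1, limma and the mm10 genome were used. The counting tool, its annotation and its strand setting: not given in the sources used here. Groups and replicate numbers came from the sample titles. The 10 genes, the gene lists and the alternatives were chosen with earlier results of these data known. Counts were tested with edgeR 4.0.16 in R 4.3.3 (quasi-likelihood, robust, TMM scaling, filterByExpr with a minimum count of 10 and a total of 15), all 12 libraries in 1 fit with 1 mean per group, and p-values were Benjamini-Hochberg adjusted over 12322 genes in each of 5 comparisons (doxycycline in each line, their difference, the lines without and with doxycycline). The script was tested on simulated data. Positions and exon lengths came from GENCODE M21, promoters from RefSeq (GRCm38.p6), matched by symbol. Alternatives were RLE and upper-quartile scaling, no filter, DESeq2 1.42.0, limma-voom (limma 3.58.1), only the libraries compared, a replicate block and leaving out libraries. Named beyond the 10 genes are up to 3 called genes per list and comparison with the smallest adjusted p, and the genes most correlated with each of the 10 with a mean of at least 5 CPM. Chromosome medians, Y-linked sums and neighbours were added after values were seen. Replicates of a group differed by more than sampling noise (lowest chi-square per degree of freedom 1.12).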

Additional observations from a re-analysis of the deposited data

Results flagged for a closer look

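*Dppa5a* and *Dnmt3a* responded to doxycycline differently in the lines, by the test of the difference itself. For *Dppa5a* the difference of the log2 responses was −0.24 (SE 0.06, edgeR adjusted p = 0.0103), from −0.21 in the wild-type and 0.03 in the mutant line. For *Dnmt3a* it was −0.61 (SE 0.06, edgeR adjusted p = 5.97e-11), with a fall of 0.58 in the wild-type line. Groups of 3 libraries are too small for a test of single outlying libraries, and the cause of both differences was not tested.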

How the results depend on the processing

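Of 740 values of the 10 genes under an alternative, 719 kept their direction and side of the threshold, 4 lost and 4 gained a call (given beside the results above), and 13 changed sign, none of them called. DESeq2 called 380 genes for doxycycline in the wild-type line (194 higher, 186 lower) against 655 by edgeR (340 and 315), and 150 for the difference of responses (93 and 57) against 307 (173 and 134); the cause was not tested. With only the libraries compared, 5 genes were called in the mutant line, 3 of them lower, against 2. Without the filter 1 germline gene of the list was called higher for the difference of responses, against 0. Leaving out 1 library at a time gave 1 to 2 of the 10 genes lower with doxycycline in the wild-type line and 0 to 1 lower for the difference of responses. For the germline list it gave 0 to 1 higher and 0 to 1 lower in the wild-type line and 0 to 1 higher for the difference. Without both libraries that stand apart, *Dppa2* had −0.041 for doxycycline in the wild-type line and −0.050 for the difference. With 1 library left out, the mutant line's doxycycline values ranged from −0.037 to 0.052 for *Dppa2*, −0.031 to 0.33 for *Dppa3*, −0.037 to 0.14 for *Tex19.1*, −0.089 to 0.12 for *Mael* and −0.73 to 0.15 for *Prdm14*. The differences of responses ranged from −0.0081 to 0.20 for *Dazl* and −0.58 to 0.30 for *Prdm14*. Replicate numbers did not pair the samples (correlations of same-numbered libraries −0.06 to 0.08). A replicate block gave 618, 2, 286, 5502 and 5354 calls in the 5 comparisons against 655, 2, 307, 5611 and 5466. At 23 to 47 counts per group, differences of *Prdm14* are the least precise here.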

Other observations

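Not every germline gene followed the line difference. *Ddx4*, the germ cell helicase, stood at 24.4 ± 2.71 CPM in the untreated wild-type and 24.4 ± 1.03 CPM in the untreated mutant line (log2 difference −0.003, SE 0.12, edgeR adjusted p = 0.987). Its promoter window holds 31 CpG with both motifs, and a link of promoter features to the line differences was not tested. *Rec8*, the meiotic cohesin, had −0.11 (SE 0.21, edgeR adjusted p = 0.6998). It lies on chromosome 14, whose median line difference was −0.49, and the part of the chromosome in its value was not tested. *Naa11* was the 1 gene of the list that was lower in the untreated wild-type line (−0.91, SE 0.23, edgeR adjusted p = 0.000827), and it had 0.14 with doxycycline (edgeR adjusted p = 0.636). *Rnf17*, a Tudor protein of germ cells from the marker list, was lower as well (−1.10, SE 0.12, edgeR adjusted p = 5.52e-11). *Ddx4*, *Rec8* and *Naa11* were picked with their values known.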
